A study of Mus musculus with 2 samples.

Results

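The genes described here are the expressed mouse genes that carry the symbol Zfp followed by a number, the old mouse name for a zinc finger protein. Of 394 protein-coding genes with such a symbol, 211 were selected on their TPM, which had to be at least 1 in both libraries. TPM is a count divided by the length of the transcript and scaled to the same total in every library. The selection used these levels, so every level below is a description and was not tested. Among all 21474 protein-coding genes, 9118 or 42.5% met the same rule, against 53.6% of the Zfp-named genes. The difference between those shares was not tested.

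The RNA came from G1E, an immortalised line of male mouse origin at postnatal age 0 day, whose cells are labelled as Gata1- progenitors of the erythroid lineage. GATA1 is a transcription factor of red cell maturation. Poly(A) RNA was sequenced as single-end reads in 2 libraries, numbered as biological replicates of 1 biosample, and these made up the only group. The labels name no separate cultures, and differences between the libraries can therefore be technical. No treatment or second genotype was measured.

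Replicate 1 held 31645051 expected counts and replicate 2 held 56983558, of which the 211 members took 260059 and 406290. The effective lengths in the files imply a read length of 36 nt for replicate 1 and 55 nt for replicate 2. All 8 erythroid progenitor markers passed 1 TPM in both libraries, at 48.4 to 764 TPM in replicate 1 and 96.7 to 363 TPM in replicate 2. None of the 18 markers of T cells, B cells, granulocytes, macrophages, fibroblasts and embryonic stem cells did so. Cd3e reached 1.68 TPM in replicate 1 alone and Adgre1 reached 1.18 TPM in replicate 2 alone. The gene Gata1, the factor named in the label, was itself measured at 88.2 TPM in replicate 1 and 61.4 in replicate 2.

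A C2H2 zinc finger is a short fold held together by a zinc ion between cysteines and histidines, and arrays of such fingers read DNA sequence. Many mammalian finger proteins also carry a KRAB box near the start of the protein, which binds the corepressor TRIM28 and through it recruits enzymes that form heterochromatin, often on retroviral repeats. Other proteins of the same name lack this box and act as activators, as splicing or decay factors, or on the ribosome. KRAB zinc finger genes multiplied by tandem duplication and lie in clusters, and neighbouring copies can be nearly identical in sequence.

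Successive fingers are joined by a conserved linker of 5 residues whose coding bases recur across the family. Only exact runs of threonine, glycine, glutamate, lysine or arginine, and proline were counted, so other forms of the linker were passed over. In the longest coding sequence of each member, 852 such linkers were found in all. The 6 members of 1 chromosome were left out of the sequence counts that follow, and the other 205 held 821 linkers in 153 genes. They were written with 240 different 15-base sequences. The commonest was ACAGGAGAGAAACCT, used 59 times, and the 4 commonest made up 21.7% of all linkers. The windows below have the length of a read of replicate 1 and run 5′ to 3′ on the coding strand of the GRCm38 transcripts, with the linker in capitals. The first 3 are the first linkers of the KRAB-matched members of highest level that have one, and the next 3 are those of members with no KRAB match. The last 2 are windows that several members share letter for letter.
Zfp777, chromosome 6: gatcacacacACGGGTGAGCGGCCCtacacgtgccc
Zfp809, chromosome 9: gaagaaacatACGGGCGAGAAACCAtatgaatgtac
Zfp445, chromosome 9: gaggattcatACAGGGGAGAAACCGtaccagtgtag
Zfp652, chromosome 11: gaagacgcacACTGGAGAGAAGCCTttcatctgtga
Zfp865, chromosome 7: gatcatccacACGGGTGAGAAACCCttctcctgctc
Zfp637, chromosome 6: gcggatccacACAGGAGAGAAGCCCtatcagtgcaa
Zfp943, Zfp945 and Zfp946 on chromosome 17 with Zfp984, Zfp990, Zfp991 and Zfp993 on chromosome 4: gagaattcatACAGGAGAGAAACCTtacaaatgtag
Zfp942, Zfp944 and Zfp945 on chromosome 17: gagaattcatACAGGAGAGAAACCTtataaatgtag

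Each of the 6 windows printed for a single gene was found in 1 annotated gene. The first shared window was found in 25 annotated genes, 7 of them members, and the second in 4, of which 3 were members. A read of 36 nt lying on such a window cannot be assigned to 1 gene from its bases. Of the 821 windows centred on a linker, 166 or 20.2% also occurred in another gene. Over the transcript with the longest coding sequence of each of the 211 members, 17.9% of the 36-mers that hold a whole linker recurred elsewhere. Of other coding 36-mers, among them those that hold part of a linker, 9.78% did so. The shares were 9.56% in 3′ UTRs and 12.6% in 5′ UTRs. In KRAB-matched members the linker share was 20.7%, against 12.6% in members with no match. Outside linkers the KRAB-matched members also shared more, at 14.4% against 6.96% of other coding 36-mers. In 5′ UTRs the shares were 18.8% and 9.12%, and in 3′ UTRs 10.7% and 8.75%.

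Across all 211 members a median of 2.36% of a gene's 36-mers recurred in another gene, against 1.65% for expressed coding genes. A share of 10% or more was found in 52 members, which is 24.6% of them, against 22.5% of expressed coding genes. In 14 members the share was 50% or more, and in 37 no 36-mer was shared. The 14 include Zfp36l1 at 58.0%, Zfp593 at 70.3% and Zfp784 at 94.8%, and also Zfp991 at 86.5% and Zfp993 at 90.3%. Zfp593 and Zfp784 each overlap another expressed coding gene, E130218I03Rik and Zfp865, on the opposite strand. Because 36-mers were compared on either strand, overlap at the same place also counts as sharing, and the 2 kinds were not separated. The levels of the 14 rest on how the authors' quantification divided reads of shared sequence, and are uncertain for that reason.

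Members were low-level genes. Their median was 7.20 TPM in replicate 1 and 8.37 in replicate 2, whereas the median of all expressed coding genes was 23.1 TPM and 22.5 TPM in the same libraries. By the mean of both libraries, 39 of 211 members lay above the expressed coding median of 23.5 TPM. At least 10 TPM was reached by 92 members, or 43.6%, against 73.5% of expressed coding genes. At least 100 TPM was reached by 6 members, or 2.84%, against 14.9% of expressed coding genes. All members together amounted to 4026 TPM in replicate 1 and 3010 in replicate 2, which is 0.477% and 0.401% of the coding total. The 15 highest members made up 48.6% of the members' sum in replicate 1 and 32.7% in replicate 2, so the share carried by the top genes differed between the libraries.

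**Figure D1:**
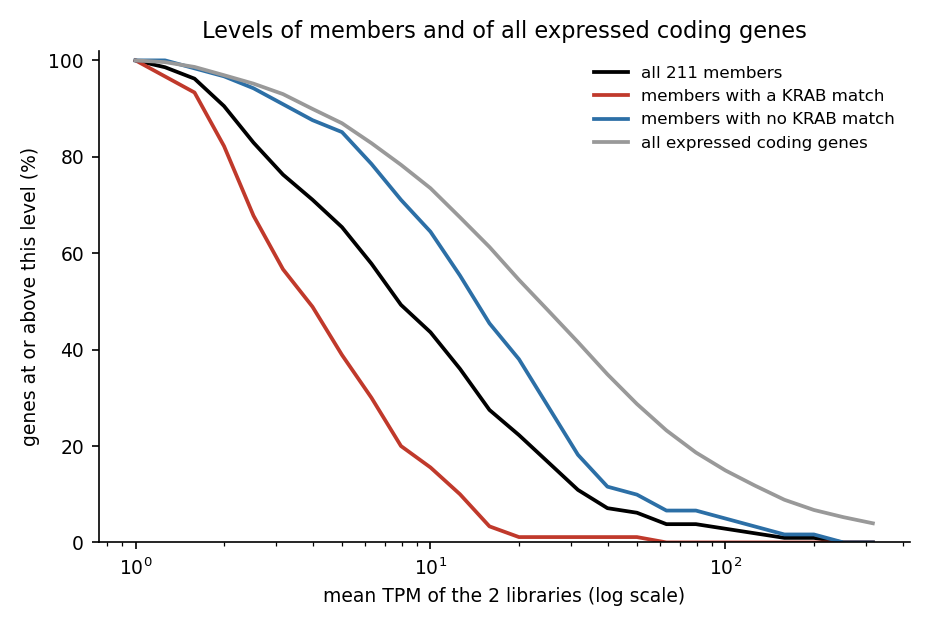
The horizontal axis is the mean TPM of both libraries on a log scale and the vertical axis the percent of genes at or above it, for all 211 members, the members with and without a KRAB match, and all 9118 expressed coding genes. At 10 TPM the curve of members stands at 43.6% and that of expressed coding genes at 73.5%.

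The highest members were led by genes that act on RNA. Zfp36l2 had 234 TPM in replicate 1 and 196 in replicate 2, and its relative Zfp36l1 had 163 TPM and 55.6 TPM. Both proteins bind AU-rich elements in mRNA through CCCH fingers and promote decay. Zfp36, the founder of that group, had 17.0 TPM in replicate 1 and 12.4 in replicate 2. These 3 genes were the only members with a match to the CCCH pattern, and none of the 3 had a C2H2 match.

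Zfp207, whose human protein binds BUB3 and microtubules in mitosis, had 276 TPM in replicate 1 and 137 in replicate 2. Zfp106, an RNA-binding protein, had 222 TPM in replicate 1 and 87.1 in replicate 2. Zfp385a had 167 TPM in replicate 1 and 93.5 in replicate 2. Replicate 1 gave the higher TPM for each of these genes. Zfp598, the ubiquitin ligase that marks collided ribosomes, was closer between the libraries, with 66.5 TPM in replicate 1 and 55.1 in replicate 2.

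All 14 genes of a list of RNA and ribosome factors with Zfp names were expressed, beside 53.6% of all Zfp-named coding genes. The median over the list was 29.4 TPM. This list and those below were chosen with earlier results of these data known, so their counts describe the lists and were not tested. Besides those above, Zfp346, a double-stranded RNA-binding protein, had 28.3 TPM in replicate 1 and 20.3 in replicate 2. Zfp622 and Zfp593, whose yeast counterparts help to build the large ribosomal subunit, leaned the other way. Zfp622 had 15.8 TPM in replicate 1 and 31.2 in replicate 2, and Zfp593 had 18.1 TPM and 23.6 TPM. The remaining members of the list were Zfp706 at 30.2 TPM in replicate 1 and 39.0 in replicate 2, Zfp830 at 17.3 TPM and 20.8 TPM, Zfp638 at 7.40 TPM and 9.36 TPM, and Zfp326 at 3.87 TPM and 8.16 TPM. Zfp326 belongs to a complex that links elongation to splicing and was the lowest of the list.

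Of 15 listed factors of transcription and chromatin, 14 were expressed, beside the same 53.6%, at a list median of 24.6 TPM. Zfp384 had 67.5 TPM in replicate 1 and 40.1 in replicate 2, and Zfp687, part of a complex with ZMYND8, had 56.7 TPM and 39.2 TPM. Zfp592, which belongs to the same complex as Zfp687, had 77.1 TPM in replicate 1 and 37.5 in replicate 2. Zfp687 and Zfp592 both stood among the 15 highest members, and other genes of that complex were not listed. Zfp703, which works with Groucho-type corepressors, had 42.7 TPM in replicate 1 and 29.2 in replicate 2. Zfp217, found with histone demethylase corepressor complexes in human cells, had 37.9 TPM and 23.9 TPM.

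Zfp410, known in erythroid cells for activating Chd4 and so keeping fetal globin silent, had 26.4 TPM in replicate 1 and 22.8 in replicate 2. The other genes of that list with means between 20 and 30 TPM were Zfp219 at 29.9 TPM in replicate 1 and 28.4 in replicate 2, Zfp91 at 24.97 TPM and 29.7 TPM, and Zfp335 at 36.3 TPM and 17.7 TPM. Zfp219 was nearly level between the libraries, whereas Zfp335 was about as far apart as a 2-fold ratio. Lower on the list, Zfp263 had 15.1 TPM in replicate 1 and 20.2 in replicate 2, and Zfp143, an activator that sits at promoters, had 16.3 TPM and 10.3 TPM. Zfp451, a SUMO ligase, had 9.98 TPM in replicate 1 and 16.1 in replicate 2, and Zfp644, a partner of the methyltransferases G9a and GLP, had 7.98 TPM and 15.6 TPM. Zfp281 had 7.26 TPM in replicate 1 and 8.37 in replicate 2, and Zfp148 had 6.34 TPM and 8.23 TPM. Zfp462, known for heterochromatin control in embryonic stem cells, was listed at 0.19 TPM in replicate 1 and at 0 in replicate 2 and was not a member.

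Other genes among the 15 highest had roles known mainly from human cells or none stated here. Zfp64, whose human counterpart activates the MLL gene in leukaemia, had 162 TPM in replicate 1 and 46.4 in replicate 2. Zfp652, whose human counterpart is a DNA-binding partner of the corepressor CBFA2T3, had 123 TPM and 51.5 TPM. Both were over 2-fold higher in TPM in replicate 1. Zfp414 had 137 TPM in replicate 1 and 51.1 in replicate 2, Zfp865 had 68.2 TPM and 32.2 TPM, and Zfp362 had 64.4 TPM and 23.0 TPM.

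**Figure D2:**
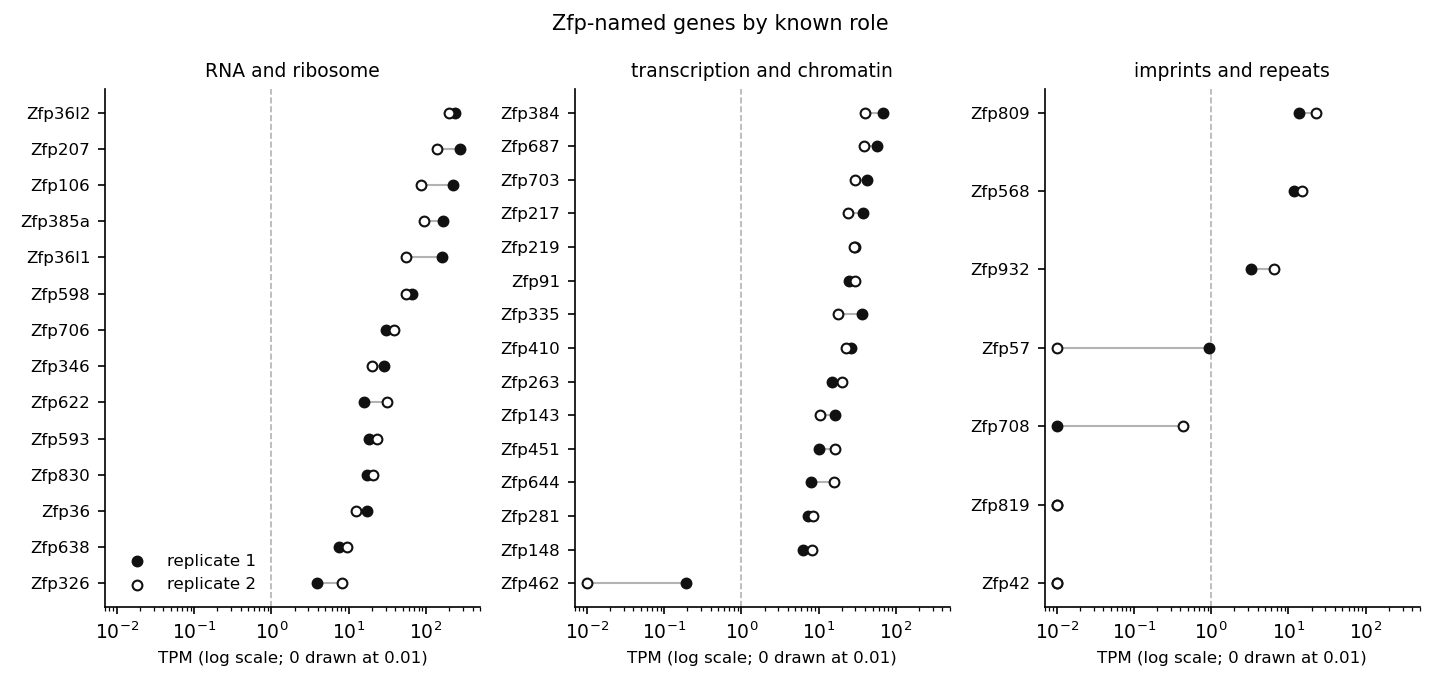
Each row is a listed gene and each panel a list, with TPM on a log axis, filled points for replicate 1, open points for replicate 2 and a dashed line at 1 TPM; values of 0 are drawn at 0.01. All 14 RNA and ribosome genes lie right of the line in both libraries, 14 of 15 transcription and chromatin genes do, and 3 of 7 genes of imprints and repeats do.

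Of 7 listed genes that act on imprints, repeats or pluripotency, 3 were expressed, beside 53.6% of all Zfp-named coding genes. Zfp809, which silences retroviruses that use a proline tRNA primer, had 13.7 TPM in replicate 1 and 22.6 in replicate 2. Zfp568, which represses a placental transcript of Igf2, had 11.7 TPM in replicate 1 and 15.1 in replicate 2. Zfp932 had 3.30 TPM in replicate 1 and 6.53 in replicate 2. Each of the 3 was higher in TPM in replicate 2. The imprint protector Zfp57 was listed at 0.94 TPM in replicate 1 and at 0 in replicate 2, whereas Zfp445, which shares that role and was not on the list, had 11.9 TPM in replicate 1 and 20.95 in replicate 2. Zfp708 was listed at 0 in replicate 1 and at 0.43 TPM in replicate 2. Zfp819 and the pluripotency marker Zfp42 were listed at 0 in both libraries.

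Of 6 listed genes with known roles in blood lineages, 2 were expressed, beside 53.6% of all Zfp-named coding genes. One was Zfp335, given above, which is needed for T cell maturation. The other was Zfp318, which controls IgD expression in B cells, at 7.11 TPM in replicate 1 and 5.77 in replicate 2. Zfp467 had 1.47 TPM in replicate 1 and 0.07 in replicate 2. Zfp521, a factor of blood progenitors, was listed at 0.01 TPM in replicate 1 and at 0 in replicate 2, and neither Zfp423 nor the T cell factor Zfp683 exceeded 0.11 TPM in either library. These 4 genes were not members.

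A KRAB box was looked for with a pattern of 11 residues in the protein translated from the longest coding sequence. It matched 90 of 211 members and 209 of 394 Zfp-named coding genes. The same pattern matched 45 of 20429 coding genes with no C2H2 match, or 0.22%. The pattern needs a tryptophan at its end and so passed over genes with another residue there. A wider pattern, chosen after the data were seen, matched 95 members. It was less specific and matched 146 of the 20429 coding genes with no C2H2 match.

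KRAB-matched genes made up a smaller share of the members than of the Zfp genes left out, and those that were members had lower levels. Of the KRAB-matched Zfp genes 43.1% were members, against 65.4% of the 185 with no match. The KRAB-matched members had a median of 3.08 TPM in replicate 1 and 4.22 in replicate 2, and the members with no match had 14.7 TPM and 13.4 TPM. On the log2(TPM + 1) scale the medians differed by -1.63, with an SD of 0.34 between the libraries. KRAB matches were found in 2 of the 50 highest members and in 39 of the 50 lowest. The shares and levels rest on the values that chose the members, and they were not tested.

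The KRAB-matched member of highest level was Zfp777, at 70.1 TPM in replicate 1 and 39.0 in replicate 2, and it was the only one among the 15 highest members. It was followed by Zfp809 and Zfp445, given above, by Zfp688 at 14.1 TPM in replicate 1 and 16.6 in replicate 2, and by Zfp282 at 14.9 TPM and 14.1 TPM. From Zfp809 downward, KRAB-matched members stayed under 20 TPM as a mean of both libraries.

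**Figure D3:**
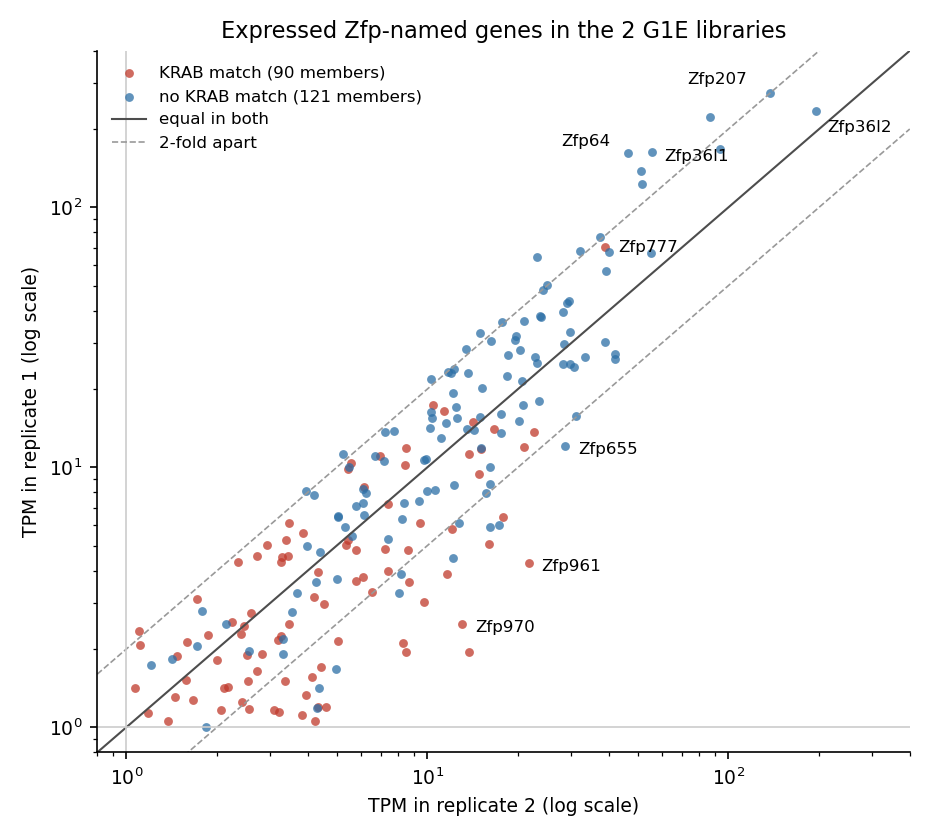
Each point is a member, with TPM in replicate 2 across and TPM in replicate 1 upward on log axes, coloured by KRAB match; the solid line marks equal levels and the dashed lines a 2-fold ratio of TPM. Members with no KRAB match fill the upper right. Of the members, 17 lie 2-fold or more toward replicate 1, 1 of them KRAB-matched, and 33 toward replicate 2, 23 of them KRAB-matched. Of expressed coding genes, 9.47% and 10.9% were that far apart in TPM in these directions.

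On the corepressor side of the KRAB system, all 16 listed partner genes passed 1 TPM in both libraries, beside 42.5% of all coding genes. Of the 16, 12 passed 10 TPM. This list too was chosen with earlier results of these data known, and its count was not tested. Trim28, which binds the KRAB box, had 894 TPM in replicate 1 and 532 in replicate 2. Setdb1, the histone methyltransferase it recruits, had 110 TPM and 106 TPM, and its cofactor Atf7ip had 41.2 TPM and 19.98 TPM. The genes of the heterochromatin protein HP1 were Cbx1 at 42.1 TPM in replicate 1 and 78.2 in replicate 2, Cbx3 at 118 TPM and 160 TPM, and Cbx5 at 58.4 TPM and 65.1 TPM. All 3 HP1 genes were higher in TPM in replicate 2. Dnmt1 and Uhrf1, which maintain DNA methylation, had 303 and 261 TPM in replicate 1 and 176 and 180 TPM in replicate 2. The lowest were Fam208a, a subunit of the HUSH silencing complex, at 2.35 TPM in replicate 1 and 5.20 in replicate 2, and the remodeller Smarcad1 at 3.45 TPM and 6.09 TPM. Trim28 in either library exceeded every member.

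C2H2 fingers were matched in 204 of 211 members, with a median of 9 per protein, and 103 members had 10 or more. The members with most by this count were Zfp142 with 40 and Zfp729b and Zfp236 with 30 each. The order depends on the pattern, since a stricter spacing gave Zfp142 6 matches and was met in 172 members. Zfp142 had 28.4 TPM in replicate 1 and 13.4 in replicate 2, Zfp236 had 15.5 TPM and 10.4 TPM, and Zfp729b had 1.41 TPM and 4.36 TPM. The 7 members with no match in the first count were Zfp36, Zfp36l1, Zfp36l2, Zfp330, Zfp703, Zfp839 and Zfp972. KRAB-matched members had a median of 11.5 fingers and 6 linkers of the exact pattern, and members with no match had 7 fingers and 1 such linker.

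Members with many fingers had lower median levels than members with few, and the KRAB share moved with finger number. The 40 members with 0 to 4 matches had a median of 19.7 TPM as a mean of both libraries, and 2 of them were KRAB-matched. The 68 members with 5 to 9 had 12.1 TPM, with 24 KRAB-matched. The 66 members with 10 to 14 had 3.97 TPM, with 41 KRAB-matched, and the 37 with 15 or more had 4.78 TPM, with 23 KRAB-matched. Median GC content went the same way, at 52.0% in the members with fewest matches and 43.9% in those with most. The parts of finger number, KRAB box and GC content in these levels were not tested.

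Set beside other zinc finger families in the same libraries, 53.6% of Zfp-named genes were expressed, at a median of 7.82 TPM. Of 41 Zbtb genes, whose fingers are joined to a BTB domain, 32 were expressed, at a median of 9.41 TPM. Of 27 Zscan and Zkscan genes, which carry a SCAN domain, 15 were expressed, at 7.32 TPM. Of 26 KLF and SP factors 12 were expressed, at 22.4 TPM, and of 19 Zc3h genes, which carry CCCH fingers, 15 were expressed, at 43.4 TPM. The median of the Zfp-named genes lay between those of the SCAN and BTB families. No test was made between families.

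The members lay on all 19 autosomes and the X chromosome. Of 92 Zfp-named genes on chromosome 7, 56 or 60.9% were members, while 35.6% of all coding genes there were expressed. Of 46 on chromosome 17, 20 or 43.5% were members, near the 45.3% of all coding genes there. When genes within 500 kb of the next were joined, 33 clusters of 3 or more genes held 238 Zfp-named genes. Of these 118 or 49.6% were members, against 93 of 156 or 59.6% outside clusters. Members in clusters had a median of 5.43 TPM and 73 of them were KRAB-matched, whereas members outside had 13.3 TPM and 17 were KRAB-matched.

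The clusters differed in how much of them was expressed. In the cluster on chromosome 13 from 67038596 to 67827002 (GRCm38), 7 of 23 genes were members. These were Zfp456, Zfp874b, Zfp58, Zfp87, Zfp748, Zfp729b and Zfp738, at a median of 2.89 TPM. Zfp87 was the highest of them, with 16.4 TPM in replicate 1 and 11.4 in replicate 2. In the cluster on chromosome 4 from 145510759 to 147848366, all 18 genes were KRAB-matched and 4 were members, Zfp984, Zfp990, Zfp991 and Zfp993, at 2.65 to 7.78 TPM. Their median share of recurring 36-mers was 75.6%, and levels there are uncertain. The first shared window printed above lies in each of these 4 genes.

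In the cluster on chromosome 17 from 21008903 to 23599487, 10 of 23 genes were members, at 1.55 to 4.55 TPM, and 21 of 23 were KRAB-matched. The 10 were Zfp160, Zfp760, Zfp229, Zfp942, Zfp943, Zfp944, Zfp946, Zfp945, Zfp40 and Zfp213. A larger share was expressed in 2 of the clusters on chromosome 7. Between 29768552 and 30169750, 12 of 15 genes were members, 10 of them KRAB-matched, at 1.16 to 26.6 TPM, and Zfp146 and Zfp568 were the highest of them. Between 127233061 and 127885996, all 10 genes were members, 4 of them KRAB-matched, at 1.72 to 31.0 TPM. Zfp646 and Zfp771 were the highest there, at 38.3 and 24.4 TPM in replicate 1 and 23.6 and 30.8 TPM in replicate 2.

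A further chromosome 7 cluster, from 24081924 to 25227507, had 8 members among 14 genes and no KRAB match by the pattern with tryptophan. The wider pattern matched 9 of the 14 genes, 4 of them members. These genes count as having no KRAB match elsewhere in the text. On chromosome 11, none of the 6 genes of a cluster from 50811086 to 51072799 was a member.

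**Figure D4:**
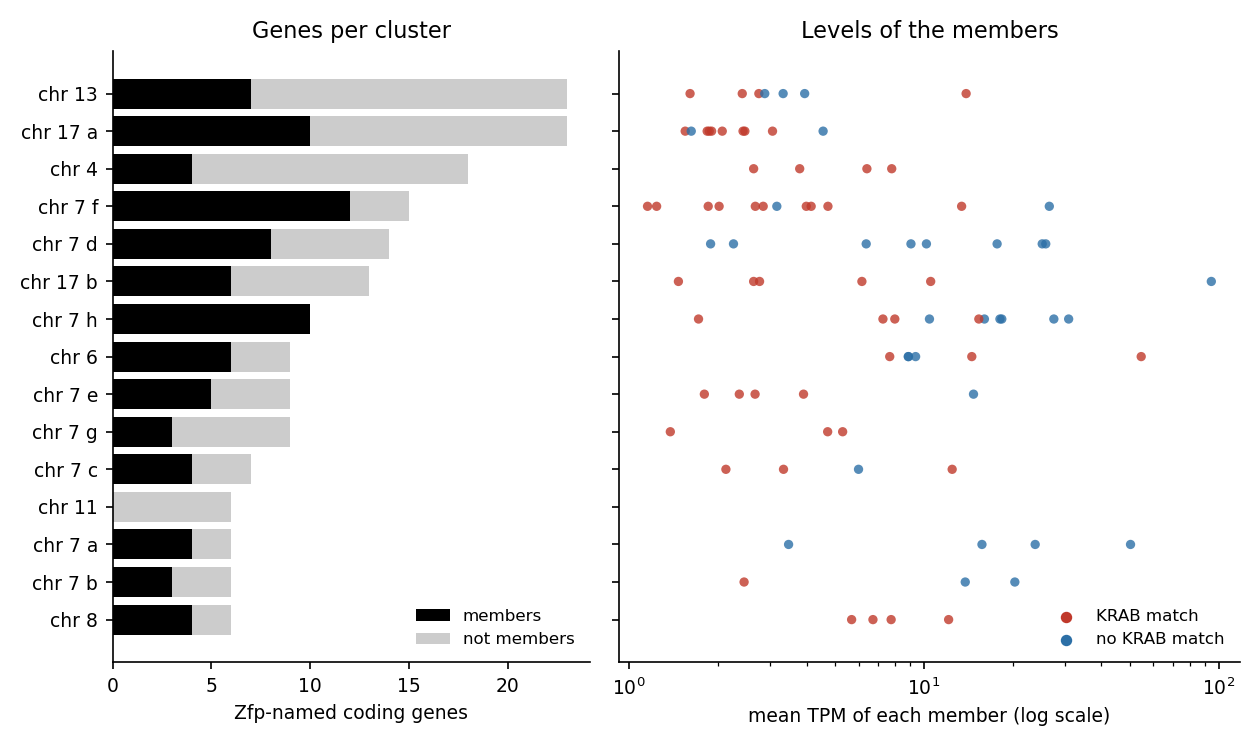
Each row is a cluster of 6 or more Zfp-named coding genes, lettered along a chromosome where it has several; bars count its genes, members in black and others in grey, and points give each member's mean TPM on a log axis, coloured by KRAB match. The 4 members of the chromosome 4 cluster stand beside 14 genes that are not members, whereas all 10 genes of the last chromosome 7 cluster are members.

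At the threshold, the members just inside were Zfp296 at 1.00 TPM in replicate 1 and 1.84 in replicate 2, Zfp472 at 1.06 and 4.23 TPM, Zfp202 at 1.06 and 1.38 TPM, Zfp30 at 1.41 and 1.07 TPM, and Zfp764 at 2.34 and 1.10 TPM. Just outside were Zfp81, Zfp473, Zfp874a and Zfp948, each at 0.99 TPM in replicate 1, and Zfp788 at 0.98 TPM. In replicate 2 these 5 had 1.62, 1.40, 3.17, 2.48 and 2.83 TPM, so replicate 1 kept each of them out. The smallest count behind a member in a library was 22.8, and 7 members had fewer than 50 in 1 of the libraries.

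Of the 183 Zfp-named coding genes that were not members, 123 were under 1 TPM in both libraries, 11 of them with no count in either. A further 12 reached 1 TPM in replicate 1 alone and 48 in replicate 2 alone. Over all coding genes the imbalance ran the other way, with 627 in replicate 1 alone and 273 in replicate 2 alone. The 12 had a median GC content of 45.5% and 5 KRAB matches, whereas the 48 had 39.6% and 41 KRAB matches.

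To compare the libraries on counts, expected counts were scaled by TMM, a normalisation that assumes most genes are level, and the ratio of replicate 1 over replicate 2 was taken. All 211 members had at least 50 counts in total. Of them, 12 or 5.69% were 2-fold or more higher in replicate 1, beside 5.83% of expressed coding genes. Another 49 or 23.2% were 2-fold or more higher in replicate 2, beside 13.3% of expressed coding genes. With DESeq2 size factors these were 3 and 64 members, or 1.42% and 30.3%, beside 3.11% and 19.3% of expressed coding genes. With the ratio of TPM they were 17 and 33, or 8.06% and 15.6%, beside 9.47% and 10.9% of expressed coding genes. The median log2 ratio was -0.20 over members and -0.05 over expressed coding genes.

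The DESeq2 factors moved the median of all expressed coding genes by -0.25 and left the members at -0.15 from it, as TMM did. Size factors move every gene alike, so this gap is the same under either by construction. With the GC trend subtracted the members stood at 0.06 from the median of expressed coding genes. The 2 libraries are 1 against 1, so no p-value was computed.

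Most members 2-fold or more higher in replicate 2 were KRAB-matched. Of 90, 1 was 2-fold or more higher in replicate 1 and 34 in replicate 2, and their median log2 ratio was -0.71. Of the 121 members with no match, 11 were 2-fold or more higher in replicate 1 and 15 in replicate 2, and their median was 0.17. Set against the median of expressed coding genes, these medians were -0.66 with a KRAB match and 0.22 without. With the GC trend subtracted, 7 KRAB-matched members were 2-fold or more higher in replicate 1 and 7 in replicate 2, at a median of -0.10. The members with no match then counted 6 and 3, at a median of 0.16. These were 7.78% in each direction with a KRAB match, and 4.96% and 2.48% without. Of expressed coding genes, 5.46% and 5.75% were then 2-fold or more higher in replicate 1 and in replicate 2.

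The member furthest toward replicate 2 was the KRAB-matched Zfp961, with 4.29 TPM in replicate 1 and 21.8 in replicate 2 and a log2 ratio of counts of -2.54. It was followed by Zfp970 at -2.36, Zfp738 at -2.24, Zfp157 at -2.19 and Zfp655 at -2.15, of which Zfp655 had no KRAB match. Zfp970 had 52.3 counts in replicate 1 and 503 in replicate 2, and 62.8% of its 36-mers recur in other genes. The member furthest toward replicate 1 was Zfp64 at 1.498, with 7295 counts in replicate 1 and 4839 in replicate 2. Zfp36l1 followed at 1.47, Zfp414 at 1.33, Zfp142 at 1.17 and Zfp362 at 1.17. None of these 5 had a KRAB match.

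GC content moved with the ratio. Median GC content over a gene's transcripts was 44.0% in KRAB-matched members and 52.0% in members with no match, beside 50.1% in expressed coding genes. Across the 211 members, Spearman's rho between GC content and the log2 ratio was 0.75, and across 9110 expressed coding genes it was 0.53. These are descriptions across genes that share both libraries, and genes are not independent replicates.

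The members were divided into 3 equal groups at 43.9% and 52.0% GC and set beside the other expressed coding genes of the same GC range. In the lowest GC group the median log2 ratio was -1.18 for members and -0.89 for other genes. In the middle GC group it was -0.11 for members and -0.14 for other genes, and in the highest GC group it was 0.63 for members and 0.28 for other genes. The members thus ran in the same direction as other genes along the GC range and their medians lay further from 0 at both ends. Only the bounds of a group were the same, and GC content within it was not matched. Among other genes the median itself ran from -1.80 near 37% GC to -0.70 near 43%. Of the 49 members 2-fold or more higher in replicate 2, 44 were in the lowest GC group. All 12 members 2-fold or more higher in replicate 1 were in the highest. Other genes leaned the same way. In the lowest GC range 621 of 1398 other genes were 2-fold or more higher in replicate 2, beside 44 of 70 members. Only 10 of these other genes were that far toward replicate 1. In the highest GC range 370 of 3567 other genes were 2-fold or more higher in replicate 1, beside 12 of 71 members. Fewer of these other genes were that far toward replicate 2.

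Within the lowest GC group the KRAB-matched members stood at -1.51 and the members with no match at -0.999. In the middle GC group they stood at -0.33 and 0.04, and in the highest at 0.77 and 0.62, where 10 members were KRAB-matched. GC content within a group was not matched between members with and without a KRAB match. When the GC trend of expressed coding genes was subtracted, 13 members or 6.16% were 2-fold or more higher in replicate 1. In replicate 2 there were 10 or 4.74%. These shares were near the 5.46% and 5.75% of expressed coding genes under the same setting. The median of all members became 0.06. The read lengths, the depth and the GC trend all differ between the same 2 libraries and cannot be told apart.

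Levels by KRAB match kept their order within the GC groups. In the lowest GC group the median of mean TPM was 2.90 for KRAB-matched members and 7.82 for members with no match. In the middle GC group these were 4.32 and 13.4 TPM, and in the highest GC group 6.30 and 20.3 TPM. In each group the KRAB-matched members had the lower median, with 10 such members in the highest GC group. These levels chose the members, and the parts of KRAB box, GC content and finger number in them were not tested.

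**Figure D5:**
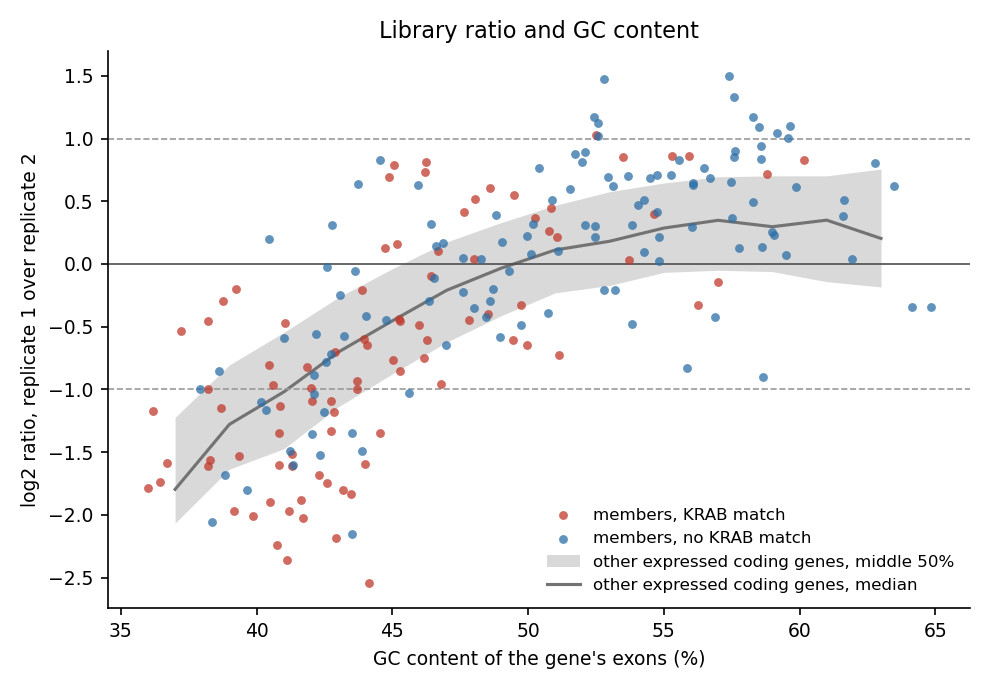
The horizontal axis is GC content in percent and the vertical axis the log2 ratio of replicate 1 over replicate 2 of TMM-scaled counts; points are members coloured by KRAB match, and the grey line and band give the median and middle 50% of other expressed coding genes in steps of GC content. Members run from a median of -1.18 in their lowest GC group to 0.63 in the highest.

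The transcript tables divide a gene's TPM among its annotated transcripts. Of 156 members with 2 or more transcripts, 109 or 69.9% were led by the same transcript in both libraries, beside 69.3% of expressed coding genes. The leading transcript held a median of 67.4% of the gene's TPM in replicate 1 and 62.2% in replicate 2. It was the same one with at least 50% in both libraries in 79 members. In 11 members or 7.05% the gene was led in both libraries by the same transcript of a noncoding type, beside 8.18% of expressed coding genes. Of these, 5 transcripts were annotated as retained introns, 3 as targets of nonsense-mediated decay and 3 as processed transcripts. The highest of the 11 was Zfp740, led by the retained intron Zfp740-204 at 42.7% in replicate 1 and 41.8% in replicate 2. Next by level were Zfp367, led by the processed transcript Zfp367-204 at 83.4% in replicate 1 and 64.1% in replicate 2, and Zfp451, led by the decay target Zfp451-206 at 64.3% and 40.2%.

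The leader differed in several of the highest members. Zfp106 was led in replicate 1 by the decay target Zfp106-209 at 33.0%, which had 9.08% in replicate 2, and in replicate 2 by the coding transcript Zfp106-201 at 66.4%, which had 24.1% in replicate 1. The length column gave the gene 2676 nt in replicate 1 and 6321 nt in replicate 2. Its log2 ratio of counts was 0.05, whereas its TPM was 222 in replicate 1 and 87.1 in replicate 2, so its scaled counts were nearly level and its TPM was not. Zfp207 was led by Zfp207-202 at 74.9% in replicate 1 and by Zfp207-201 at 57.4% in replicate 2. Leaders also differed in Zfp865, Zfp362 and Zfp414, each between 2 coding transcripts. For these genes a comparison of TPM between the libraries depends on that division.

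No label or file header states whether strand was used in counting, and reads of genes that overlap on opposite strands cannot be told apart without it. Of 211 members, 21 overlap another expressed coding gene, 20 of them one on the opposite strand. In 3 the other gene had at least 10 times the level of the member. One is Zfp296 at 1.42 TPM over Gemin7 at 43.3 TPM, another Zfp866 at 6.72 TPM over Atp13a1 at 70.7 TPM, and the last Zfp784 at 3.48 TPM over Zfp865 at 50.2 TPM, all as means of both libraries. Zfp296 is also the member nearest to the threshold. Zfp668 and Zfp646 overlap each other on opposite strands and are both members.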

How the data were processed

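Per the labels, 2 libraries of G1E poly(A) RNA made up the only group. Per the files' notes, the authors quantified each library separately from alignments to the transcriptome of mm10 with annotation release M4. No source used here names the aligner or quantifier. The deposited expected counts estimate the reads of each gene or transcript and are not normalised. The deposited TPM values divide counts by effective length and are scaled over all features of a library. The deposited FPKM values were an alternative. The deposited signal columns hold a posterior mean of TPM, also used as an alternative. The deposited percent column divides a gene's TPM among its transcripts.

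The members, the gene lists and the tests were chosen with earlier results of these data known. GENCODE M21 (GRCm38, which is mm10) gave symbols, gene types, positions and sequences by gene identifier, version left off: 42462 of 43346 genes matched and 884 did not. Entries that name no gene held 0.0363% of counts in replicate 1 and 0.0094% in replicate 2 and were left out of library sizes.

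Library ratios are of expected counts, rounded for the count tools and scaled by TMM factors from edgeR 4.0.16 after its default expression filter (0.982 in replicate 1 and 1.02 in replicate 2), with 0.5 added and at least 50 counts in total. DESeq2 1.42.0 gave alternative size factors. The ratio step was tested on simulated data. The GC trend is a lowess with a span of 0.3. Shared sequence counts a gene's 36-mers that occur in another gene on either strand. Linker sequences of the 6 members on chromosome 18 are not reported here. Proteins were translated from the longest GENCODE coding sequence, in place of the RefSeq proteins named when the design was written; motif matches are descriptions. C2H2 matches had 2 to 4 residues between the cysteines, 12 in the middle and 3 to 5 before the last histidine or cysteine. Named genes were the 15 highest members, 5 on each side of the threshold, 5 at each end of the ratio, 3 at each end of finger number (7 tied with none), the 5 highest KRAB-matched members, members of the 3 largest clusters and all listed genes; a few members and genes not expressed were named beside them after their values were seen. Analyses used R 4.3.3 and Python 3.11.15 with statsmodels 0.14.6, matplotlib 3.10.9, scipy 1.17.1, numpy 2.4.6 and pandas 2.3.3.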

Additional observations from a re-analysis of the deposited data

How the results depend on the processing

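Of 47 alternatives run, 38 kept the direction of the result and stayed within 1.5 times a count or within the spread used for a value. With any count in both libraries as the rule, 334 genes were members. The median level moved to 10.02 TPM with TPM rescaled over coding genes, to 6.05 with FPKM, and to 9.29 TPM without members of 10% or more shared 36-mers. The number of members 2-fold apart, 61 as reported, became 23 with the GC trend subtracted and 37 without members of 10% or more shared 36-mers. The median log2 ratio, -0.20 as reported, became 0.0059 with the ratio of TPM and 0.063 with the GC trend subtracted. It was -0.45 with DESeq2 size factors, -0.46 with TMM without the expression filter and -0.06 without members of 10% or more shared 36-mers. A stricter C2H2 pattern gave a median of 7 fingers. Coding genes held 84.4% of TPM in replicate 1 and 75.1% in replicate 2, and rescaling over them raises every level of a library alike. FPKM also differs from TPM by 1 factor per library. Apart from these and the changed rules themselves, the cause of the moves was not tested. Leaving out each replicate in turn gave 223 to 259 members, a median level of 7.20 to 8.37 TPM, 16 to 16 expressed KRAB partners and a KRAB difference of -1.95 to -1.47. TMM without the expression filter and the wider KRAB pattern were added after seeing the data and gave 68 members 2-fold apart and a KRAB difference of -1.66. No paired analysis was possible because there was only 1 group. Depth limits members near 1 TPM, of which the lowest had 22.8 counts in a library.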

Other observations

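Besides the coding genes, 17 entries of other types carry a Zfp symbol, and 3 of them had at least 1 TPM in both libraries. Zfp652os, an antisense transcript, had 5.49 TPM in replicate 1 and 4.66 in replicate 2. Zfp335os, also antisense, had 1.34 TPM in replicate 1 and 2.73 in replicate 2. The coding partners of both, Zfp652 and Zfp335, are members. The pseudogene Zfp422-ps had 3.50 TPM in replicate 1 and 4.08 in replicate 2, and 100% of its 36-mers occur in another gene.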
